A study of Mus musculus with 7 samples.

Results

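Gene expression was compared between B195AP+ Sdc4- cells and the other Sdc4- cell populations of the series, Cspg4- Sdc4- and CD1 Sdc4-. Members were chosen by their labels: 3 of the 7 arrays of the series, 1 array per population. The study traced mouse cell lineages with Cre lines and labelled the cells as positive or negative for syndecan 4 (Sdc4), a cell-surface proteoglycan of satellite cells. B195AP+ Sdc4- cells were the traced cells of the B195AP-Cre line, and Cspg4- Sdc4- cells were those labelled Cspg4- in the line B6,FVB-Tg(Cspg4-cre)1Akik/J. CD1 Sdc4- cells came from Crl:CD1(ICR) mice, named without a Cre. The other 4 arrays held Cspg4+ cells, Cspg4- Sdc4+ cells, CD1 Sdc4+ cells and Myf5SOR+ Sdc4+ cells of B6.129S4-Myf5tm3(cre)Sor/J. Between 8 and 10 animals were used per phenotype, and 10 to 200 ng of RNA was labelled. The series title places the cells in the dermis. The labels used here give neither the age or sex of the animals nor the promoter that drives Cre in B195AP-Cre.

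Satellite cells are the stem cells of skeletal muscle, and when they differentiate they switch on myogenic transcription factors, fuse, and fill with the contractile proteins of the sarcomere. Dermal cell preparations can hold fibroblasts, pericytes, Schwann cells, mast cells and other cells beside myogenic precursors, and each is recognised by its own marker genes. Cspg4 (NG2), the proteoglycan that gives the Cspg4 line its name, marks pericytes and glial precursors.

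Values are log2 intensities relative to the 75th percentile of the array, so a value of 0 lies at that percentile and a difference of 1 is a factor of 2. Of the 59305 non-control spots of the B195AP+ array, 24516 (41.3%) lay in a corner crossed by streaks of low signal and were left out. In that corner 5.38% of spots lay more than 1.5 log2 units below the median of the other 6 arrays, against 1.05% elsewhere. This left a B195AP+ value for 32866 of 55681 probes. It gave 13273 genes well above background on at least 1 side, of which 11920 were well above background on all 3 arrays. Repeated spots of a probe had a median SD of 0.10 log2 units on the B195AP+ array, and of 0.07 and 0.06 on the Cspg4- Sdc4- and CD1 Sdc4- arrays. The 3 arrays lay in the same row of the same slide.

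A second defect of the B195AP+ array touched the results. Outside the streaked corner, 37 neighbouring spots in rows 233 to 244 and columns 1 to 6 were bright on this array beyond the median of the others. The 8 genes with the largest apparent excess on B195AP+ over background on both other arrays (Gm4312, Cntn4, Sh2d4b, Tex11, Nox3, B930018H19Rik, Slc6a11 and Sema3d) all lay on such clustered spots, and their values are not given as gene levels. Slc5a7, Nefl, Ivl and Grk3, named further on, also lay on spots with deviating neighbours.

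**Figure D1:**
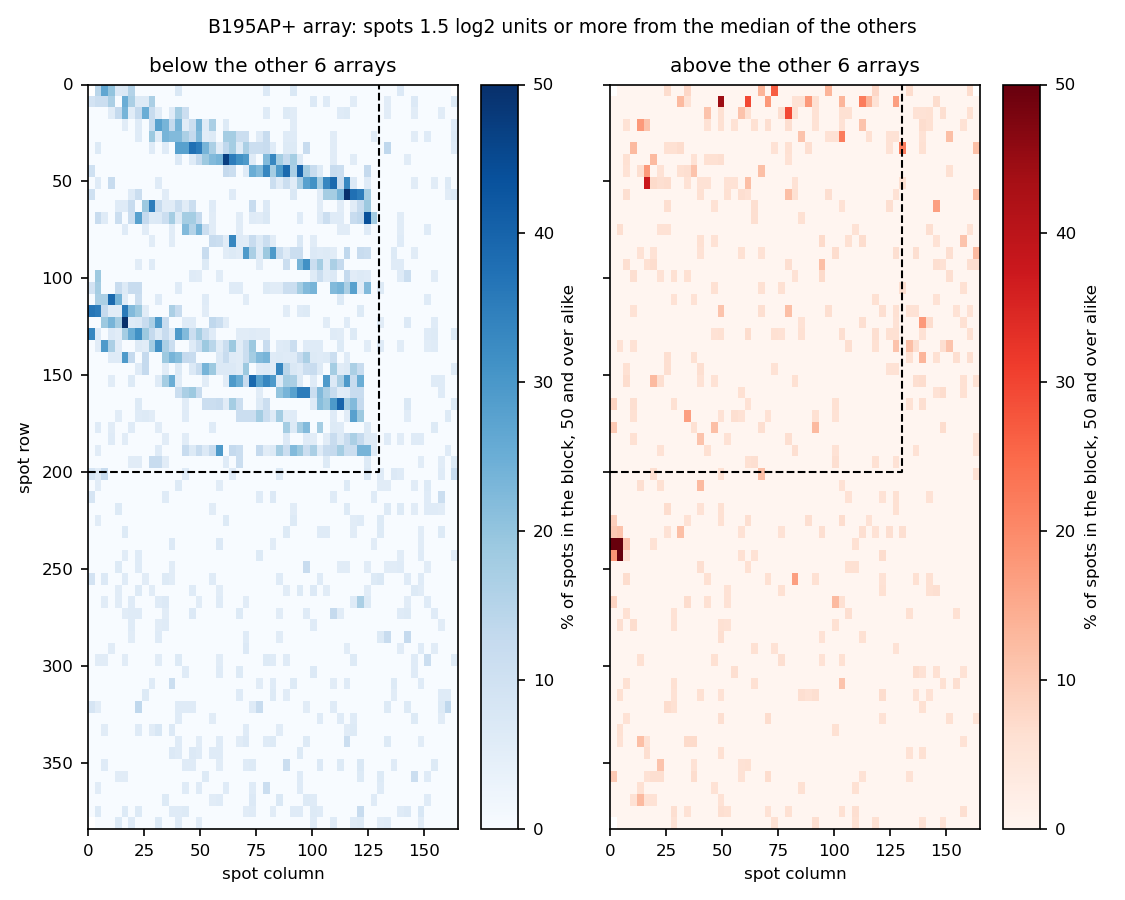
Percentage of non-control spots of the B195AP+ array that lay more than 1.5 log2 units below (left) or above (right) the median of the other 6 arrays, in blocks of neighbouring spots by spot row and column. Blocks with few non-control spots are blank, and blocks at 50% and over share a colour. The dashed line bounds the corner left out, which the streaks of low signal cross, and the dark block at rows 233 to 244 on the right is the bright patch.

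The Sdc4- gate could not be read on the B195AP+ array, because the sole Sdc4 probe lay in the streaked corner. Sdc4 was at 5.11 on the Cspg4- Sdc4- array and 5.27 on the CD1 Sdc4- array, against 6.26 and 6.32 on the Sdc4+ arrays of the same lines. On the Myf5SOR+ Sdc4+ array it was at 3.79, below both Sdc4- arrays. Sdc4 transcript was therefore well above background in cells labelled Sdc4-. Cspg4 was at 1.77 on B195AP+, 0.66 on Cspg4- Sdc4- and 1.02 on CD1 Sdc4-. The satellite cell factors Pax3, Pax7 and Myf5 were not well above background on any of the 7 arrays, and Myod1, the myogenic determination factor, was above it on CD1 Sdc4- alone. The neural crest factor Sox10 was above background on Cspg4- Sdc4- alone. Of the 30 dermal fibroblast genes listed, some were at high levels on all 3 arrays. Decorin (Dcn), a matrix proteoglycan, was at 8.76, 8.64 and 8.41, and fibronectin (Fn1) at 8.19, 8.79 and 8.57. Others were not: Col14a1 was at 0.14, -0.95 and -1.57, and Dpp4 and En1 were too dim to enter the comparison. A further 9 had no B195AP+ value outside the corner. The arrays also differed in sex-linked transcripts. Xist, transcribed from the inactive X, was at 0.85 on B195AP+, -1.42 on Cspg4- Sdc4- and 1.26 on CD1 Sdc4-. Y-linked Ddx3y was at -1.70 and 1.04 on the first 2 arrays and at background on CD1 Sdc4-, so B195AP+ held both transcripts at intermediate levels. The part of the animals' sex in the other differences was not tested.

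B195AP+ cells stood outside both other Sdc4- populations by at least 2-fold in part of the 11920 genes well above background on all 3 arrays. They were higher in 136 genes (1.14%) and lower in 264 (2.21%). Among the higher genes were Krt18, Dlk1, Cxcl10 and Ngfr. The lower genes included genes of the sarcomere, of pericytes, of complement and of the hypoxia response. Without regard to size, B195AP+ lay above both arrays in 38.4% of genes and below both in 32.9%. Counting also genes at background on 1 side, 395 were higher (2.98% of 13273) and 402 lower (3.03%). These include genes that had to differ to enter.

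B195AP+ lay somewhat further from the other 2 arrays than these lay from each other. B195AP+ and Cspg4- Sdc4- were at least 2-fold apart in 1023 genes (8.58%), B195AP+ and CD1 Sdc4- in 974 (8.17%). The other 2 arrays were so from each other in 782 (6.56%). Around the 2-fold limit, Ccn2 lay just inside at a gap of 1.01 and Slc6a9 just outside at 0.9993. On the lower side Otulinl was inside at -1.0023 and Abca3 outside at -0.9971. Of the genes called higher, 21 had a further measured probe: 23 of their 26 other probes lay above both arrays and 13 by at least 2-fold. Of 35 other probes of 31 lower genes, 30 lay below both, 24 by at least 2-fold, and 2 lay above both.

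**Figure D2:**
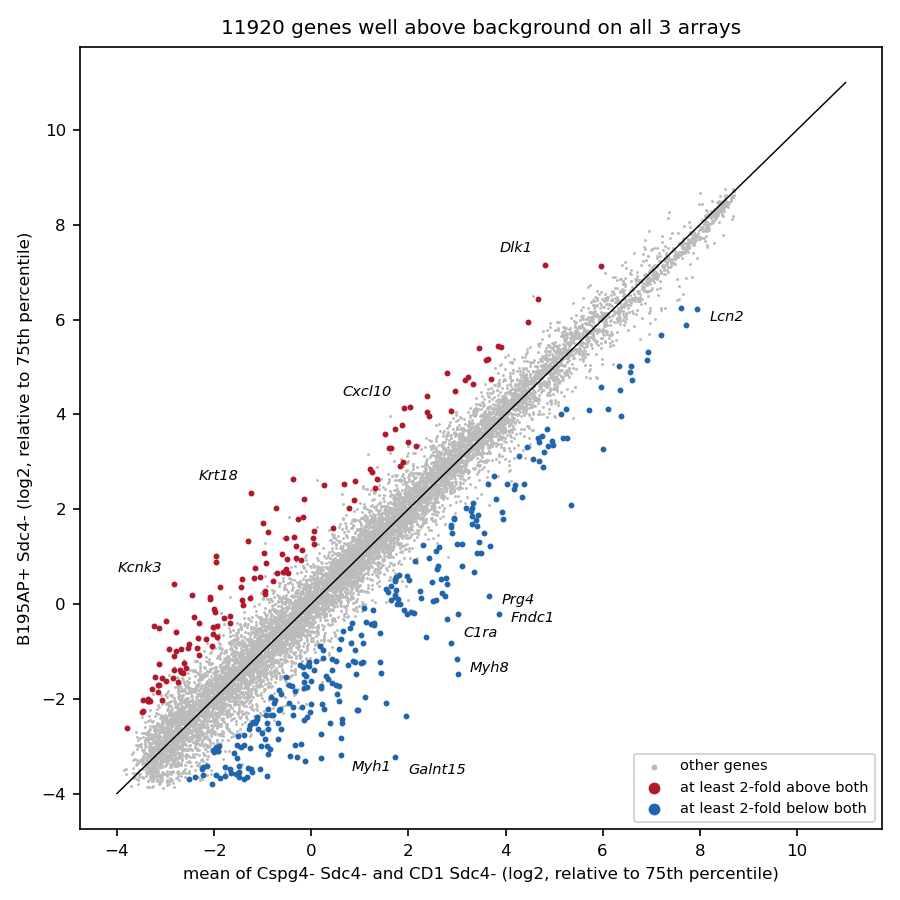
Log2 intensity on the B195AP+ array (vertical) against the mean of Cspg4- Sdc4- and CD1 Sdc4- (horizontal) for the 11920 genes well above background on all 3 arrays, both relative to the 75th percentile of the array. The line marks equality; 136 genes lie at least 2-fold above both other arrays and 264 at least 2-fold below both.

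A test was possible only by borrowing the spread from other lines. limma was fitted to 6 arrays in 3 groups (B195AP+, the other Sdc4- arrays and the 3 Sdc4+ arrays), with 3 residual degrees of freedom, assuming that the lone B195AP+ array varies like the others. Its p-values measure the spread between arrays of different lines. At an adjusted p of 0.05 (Benjamini-Hochberg), 51 genes (0.384% of 13273) were higher on B195AP+ and 4 (0.0301%) lower. Of these 55 genes, 28 lay on clustered spots and 48 were at background on both other arrays. With the clustered spots left out, an alternative added after the patch was seen, 2 passed, both probes that the files name only by a genomic interval. When the fit was limited to the 11920 genes above background on all 3 arrays, 0 passed in limma, with a smallest adjusted p of 0.271 and 339 higher and 441 lower genes at an unadjusted p under 0.05. Of the named genes above background on all 3 arrays, 3 passed the limma fit as designed: Galnt15 (adjusted p = 0.0228), Mymx (0.0464) and Cth (0.0476). Off the clustered spots, Cpb1, Pdzk1 and Hhip, all at background on both other arrays, passed it too. Like the other passing genes at background on both, they entered the fit only because B195AP+ was above background. They could only be higher, so their passing supports nothing. With the clustered spots left out none of these 6 passed, and the adjusted p-values of Galnt15, Mymx and Cth were 0.0640, 0.0927 and 0.0927. The sizes below are therefore descriptions of single arrays, and no test supports them.

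Among genes above background on all 3 arrays, the largest excess on B195AP+ was in keratin 18 (Krt18), an intermediate filament protein of simple epithelia (probe at chr15:101862341-101862400 in mm9). It was at 2.35 on B195AP+, -1.36 on Cspg4- Sdc4- and -1.13 on CD1 Sdc4-, 12.1-fold above the mean of the other 2. The other 4 arrays of the series lay between -1.29 and 0.48, so B195AP+ stood apart from all of them. Its partner Krt8 was at -2.31 on B195AP+ and at background on the other 2, at least 3.07-fold higher. Krt8 entered only because B195AP+ was above background, so it could only be higher and adds no support. Of the keratinocyte list, Krt5, Krt1, Dsp, Dsg3, Dsc3, Cdh1 and Epcam did not enter the comparison, being well above background neither on B195AP+ nor on both other arrays. Of the 7 members above background on all 3, 3 were higher and 4 lower than the mean of the others. Of the 3 Sdc4- arrays, the cornified envelope gene Lor was above background on B195AP+ alone (at least 1.93-fold), so it too could only be higher. Lor was at -2.97 there, against -3.18 on Cspg4- Sdc4+ and -3.24 on CD1 Sdc4+. Ivl, of the same envelope, was called higher on a clustered spot.

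Dlk1, a membrane protein that restrains adipocyte differentiation and marks fibroblast precursors, was at 7.16 on B195AP+, 4.57 on Cspg4- Sdc4- and 5.07 on CD1 Sdc4-. That is 5.06-fold above their mean, and its other probe gave a gap of 2.56 log2 units. Dlk1 was also above the 4 remaining arrays, which ranged from 2.93 to 5.50. Dlk1 is an imprinted gene, and its imprinted neighbour Mirg was higher too, at 2.89 against 0.67 and 2.03. Over the 14 imprinted growth genes above background on all 3 arrays, 7 were higher and 7 lower. Dlk1 was the sole member called (1.14% of all genes were called higher).

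Ngfr and Ncam1, of the Schwann and neural crest list, were called higher (1.14% of all genes were). The low-affinity neurotrophin receptor Ngfr was at -0.58 on B195AP+ against -2.93 and -2.63, 4.58-fold higher. Ncam1, a cell adhesion molecule of satellite cells and of nerve, was at 4.05 against 2.22 and 2.53. Its further probes gave gaps of 1.11 and 0.00, so 1 probe did not show the excess. The potassium channel gene Kcnk3 was at 0.42 against -2.65 and -2.98 (9.40-fold), and Kctd12, an auxiliary subunit of GABA-B receptors, at 1.33 against -1.38 and -1.24 (6.22-fold). Kctd12 was between -1.76 and -1.10 on the other 4 arrays, so B195AP+ stood alone. Gabrg3, a GABA-A receptor subunit, was at -0.36 against -3.14 and -2.84, but at 0.78 on the Myf5SOR+ Sdc4+ array. Nefl, the light neurofilament, was at -0.51 against -3.64 and -2.61, and Slc5a7, the choline transporter, at -0.46 against -3.61 and -2.86, both on clustered spots. Most members of the Schwann and neural crest list lay close to the other arrays. Of 9 members above background on all 3 arrays, 6 were higher and 3 lower, with a median difference of 0.15. Over all genes the median difference was 0.03, with 6333 higher and 5587 lower.

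Cth, the enzyme that makes cysteine from cystathionine, was at 1.51 on B195AP+ and at -1.09 and -0.70 on the others, 5.31-fold higher. On the remaining 4 arrays Cth lay between -1.22 and -0.67. The formin Diaph3, which nucleates actin, was at 1.08 against -0.91 and -1.02. Serinc2, a membrane protein, was at 4.15 against 1.95 and 2.12, and at 4.27 on Myf5SOR+ Sdc4+. The other genes among the 15 highest were AA467197 (8.13-fold), Tmem179 (4.02-fold) and Spink2, a serine protease inhibitor (3.77-fold).

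**Figure D3:**
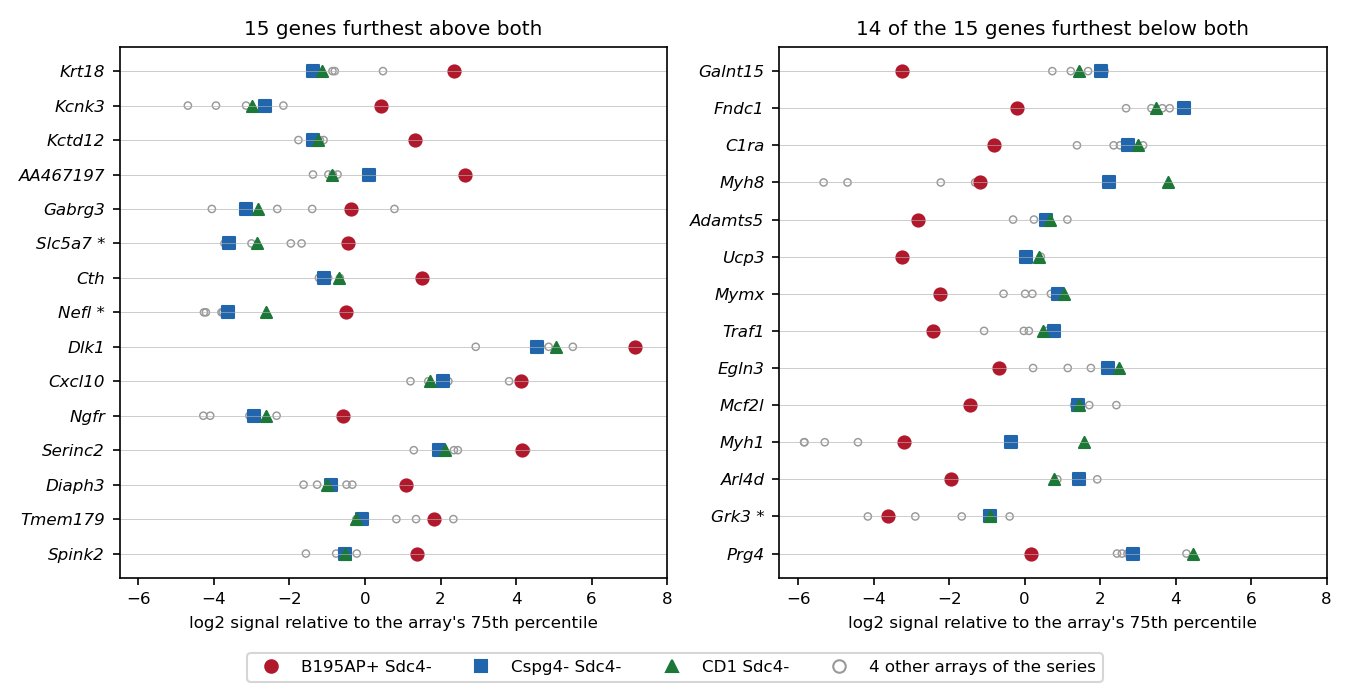
Log2 intensity relative to the 75th percentile of the array for the 15 genes furthest above (left) and 14 of the 15 furthest below (right) both other Sdc4- arrays, ordered by the gap to the nearer one. Each symbol is 1 array, open circles are the 4 other arrays of the series, and an asterisk marks a gene on clustered spots. B195AP+ lies beyond every other array for Krt18 and Galnt15, whereas for Gabrg3 and Myh8 other arrays reach past it.

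Among genes above background on all 3 arrays, the largest deficit was in Galnt15, a member of the enzyme family that starts mucin-type O-glycosylation (probe at chr14:32875310-32875369 in mm9). It was at -3.24 on B195AP+, 2.02 on Cspg4- Sdc4- and 1.45 on CD1 Sdc4-, 31.3-fold lower than their mean. The 4 remaining arrays lay between 0.73 and 2.12, so the transcript was close to background in B195AP+ cells alone. Fndc1, a fibronectin type III domain protein, was at -0.20 against 4.22 and 3.49 (16.7-fold lower), with a gap of -2.13 at its other probe. The aggrecanase Adamts5 was at -2.83 against 0.56 and 0.67 (10.9-fold). The lubricin gene Prg4 was at 0.16 against 2.86 and 4.47 (11.3-fold). Outside the 15 lowest, Podn, a small leucine-rich proteoglycan, was at -1.71 against 0.69 and 0.31, and Col12a1, a collagen of tendon and fascia, at -2.10 against 0.60 and 2.50. Of 19 matrix proteases and inhibitors above background on all 3 arrays, 15 were lower and 4 higher, 3 were called lower (Adamts5, Adamts15 and Adamts2; 2.21% of all genes) and the median difference was -0.57. Genes of dermal fibroblasts did not share this: of 19, 8 were higher and 11 lower, with a median of -0.03. The sole calls were higher (1.14% of all genes were), in Dlk1 and in Col14a1 (0.14 against -0.95 and -1.57).

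The sarcomere genes were lower on B195AP+ than on the other Sdc4- arrays. The embryonic and perinatal myosins and the fast fibre genes mark differentiating myotubes. Myh8, the perinatal myosin heavy chain (probe at chr11:67121925-67121984 in mm9), was at -1.17 on B195AP+, 2.22 on Cspg4- Sdc4- and 3.80 on CD1 Sdc4-, 18.1-fold below their mean. Myh1, a fast adult myosin heavy chain, was at -3.18 against -0.36 and 1.58 (13.8-fold), and Mybpc1, a myosin-binding protein, at -2.45 against -0.68 and 0.37 (4.90-fold). Each of these was lowest on B195AP+ of the 3 arrays and highest on CD1 Sdc4-. The embryonic myosin Myh3 was at 1.00 against 1.85 and 3.79, and skeletal actin Acta1 at 0.38 against 0.71 and 3.19, both inside the 2-fold limit to Cspg4- Sdc4-. Of the 52 sarcomere genes of the list, 20 had no B195AP+ value outside the corner and 9 were too dim to enter. Of the 21 above background on all 3 arrays, 18 were below the mean of the others and 3 above. Of these 21, 15 lay below both (32.9% of all genes did), and 8 were called lower (2.21% of all genes). The median difference was -1.75 against 0.03 over all genes.

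The size of this deficit depended on the array compared. Against Cspg4- Sdc4- the median over the 21 genes was -0.55, and against CD1 Sdc4- it was -2.81. The other 2 arrays themselves differed by 1.58 at their medians. Some members were not below both arrays. Among them were Cryab, a chaperone, and the tropomyosins Tpm1, Tpm2 and Tpm3, which non-muscle cells also express. Cryab was at 5.84 against 4.81 and 5.03. Myl2, outside the 21 genes, was above background on B195AP+ and on neither other Sdc4- array. B195AP+ was not the lowest array of the series in sarcomere genes. Relative to each gene's mean over the 7 arrays, the list median was 0.28 on B195AP+. It was -0.92 on Myf5SOR+ Sdc4+, -1.31 on Cspg4- Sdc4+, -0.98 on CD1 Sdc4+ and -0.51 on Cspg4+. On these arrays Myh1 lay between -5.84 and -4.41 and Mybpc1 between -4.09 and -2.57, below B195AP+. Myh8 was at -5.32, -4.69 and -2.22 on the 3 Sdc4+ arrays, below B195AP+ on each, and Myh3 at -5.77, -4.22 and -3.14. In bulk RNA, fewer cells of a type and less RNA per cell cannot be told apart.

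Genes upstream of the sarcomere were less uniform. Myog, the differentiation factor of myoblasts, was at -1.85 on B195AP+, -1.62 on Cspg4- Sdc4- and 0.42 on CD1 Sdc4-, so it was close to the first of these. Mymx (myomixer), the small membrane protein that drives myoblast fusion, was at -2.24 against 0.88 and 1.04, 9.20-fold lower. It was between -0.56 and 0.70 on the other 4 arrays, among them the Sdc4+ arrays on which Myh8 was lowest, so Mymx and Myh8 did not follow the same order. Myf6 (MRF4) went the other way: it was at -2.15 on B195AP+ and at background on the other 6 arrays, at least 3.38-fold higher than on the Sdc4- ones. Among genes of calcium handling and energy supply in muscle, 8 of 10 were lower (5587 of all 11920 genes were) and 2 were called lower (2.21% of all genes). Cox7a1, a subunit of cytochrome oxidase, was called at 0.14 against 1.68 and 2.86, and the muscle enolase Eno3 at 0.51 against 1.54 and 2.49. The acetylcholine receptor subunit Chrna1 was lower as well, at -0.50 against 1.03 and 0.56.

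Satellite cell surface genes were split. Vcam1, an integrin ligand, was at 2.84 against 0.95 and 1.47 (3.10-fold higher) and repeated at its other probe with a gap of 1.20. Dystroglycan (Dag1), the laminin receptor of the muscle membrane, was at 2.02 against 3.36 and 3.25 (2.44-fold lower). Of the 11 genes above background on all 3 arrays, 6 were higher and 5 lower, and the median was 0.00.

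Of 14 mast cell genes 7 entered the comparison, 5 of them because they were well above background on both other Sdc4- arrays and not on B195AP+. These 5 could only be lower, so their number supports nothing. Cpa3, the carboxypeptidase of mast cell granules, was at -6.19 on B195AP+, -0.73 on Cspg4- Sdc4- and -0.77 on CD1 Sdc4-, at least 9.29-fold lower. Hdc, the histamine-making enzyme, was at -3.99 against -0.60 and -0.61, at least 10.3-fold lower. The chymases Cma1 and Mcpt4 and the stem cell factor receptor Kit were at background on B195AP+ too, with bounds of 2.18-fold, 1.69-fold and 1.88-fold. The 2 members above background on all 3 arrays, the tryptase Tpsb2 (-2.23 against -0.75 and -0.56) and the IL-33 receptor Il1rl1 (5.70 against 7.41 and 6.48), were lower as well. Of the other 7 genes of the list, 3 were well above background neither on B195AP+ nor on both other arrays, 3 had no B195AP+ value outside the corner and 1 was not on the array. Low mast cell levels were not confined to B195AP+: Cpa3 was at -5.79 on Cspg4+, -5.76 on Myf5SOR+ Sdc4+ and -6.36 on CD1 Sdc4+, and at -1.14 on Cspg4- Sdc4+. Kit, by contrast, was above background on all 4 of the remaining arrays, between -2.75 and -1.06.

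Genes at background on B195AP+ and well above it on both other arrays numbered 229 of 13273, and could only be lower. The largest was Ifi202b, a member of the interferon-inducible HIN-200 family, which was at -6.02 on B195AP+, 2.21 on Cspg4- Sdc4- and 4.75 on CD1 Sdc4-, at least 174-fold lower. Ifi202b was also high on the Sdc4+ arrays of these lines, at 1.28 and 4.94, and low on Cspg4+ (-4.50) and Myf5SOR+ Sdc4+ (-5.51), so its level split arrays of the Cspg4 line. Cxcl13, which attracts B cells, was at -4.20 against 2.09 and 3.97, at least 128-fold lower. The protease inhibitor Wfdc12 was at -3.91 against 3.75 and 0.06 (at least 56.0-fold), and the secreted peptide Prok2 at -4.38 against 0.08 and 1.22 (at least 24.4-fold). Saa2, an acute phase protein, was at -4.17 against -0.34 and 0.22, and dermokine (Dmkn) and the chromatin remodeller Chd5 had bounds of 13.4-fold and 10.5-fold.

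Complement genes were below the mean of the others in 5 of 6, and 5587 of all 11920 genes were. C1ra, the protease that starts the classical complement cascade, was at -0.82 against 2.75 and 3.01, and was between 1.39 and 3.14 on the other 4 arrays. C3, the central complement component, was at 3.50 against 4.68 and 5.70, and its other probe gave the same gap of -1.18. The iron-binding protein Lcn2 was at 6.22 against 8.00 and 7.88 (3.28-fold lower) and the acute phase gene Saa3 at 5.01 against 6.03 and 7.13 (2.97-fold). Chemokines and cytokines shared no direction: of 16, 8 were higher and 8 lower, and the median was -0.07. Of these, 1 was called higher and 2 lower, beside 1.14% and 2.21% of all genes. Traf1, an adaptor of TNF receptors, was at -2.42 against 0.77 and 0.49 (8.30-fold).

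Interferon-stimulated genes were higher on B195AP+ cells, by little over Cspg4- Sdc4- and by much over CD1 Sdc4-. Interferons act through STAT and IRF factors that bind a shared response element and induce antiviral proteins. The 250 bases before the start are shown for Cxcl10 and for Isg15, a ubiquitin-like antiviral protein, because they hold that element. Cxcl10 was the listed chemokine furthest above both other Sdc4- arrays. Capitals mark matches to a pair of GAAA half-sites 2 bases apart on either strand (RefSeq, GRCm38.p6). Cxcl10 lies at chr5:92348890-92349139 on the minus strand and has 1 match. Isg15 lies at chr4:156200819-156201068 on the minus strand and has 3 overlapping ones.
Cxcl10: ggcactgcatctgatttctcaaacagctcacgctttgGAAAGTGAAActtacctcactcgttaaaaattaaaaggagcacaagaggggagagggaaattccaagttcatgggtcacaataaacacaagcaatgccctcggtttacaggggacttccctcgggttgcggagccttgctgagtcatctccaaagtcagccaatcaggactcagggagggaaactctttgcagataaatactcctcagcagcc
Isg15: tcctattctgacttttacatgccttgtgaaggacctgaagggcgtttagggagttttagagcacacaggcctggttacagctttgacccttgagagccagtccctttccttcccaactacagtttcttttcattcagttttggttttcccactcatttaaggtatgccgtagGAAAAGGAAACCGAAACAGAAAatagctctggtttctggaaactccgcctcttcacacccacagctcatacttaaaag
Of the 21 interferon response genes above background on all 3 arrays, 19 had a promoter in the reference table and 7 of these held the motif, against 3.46% of all 27025 genes with a promoter there. A match describes the letters and shows no binding.

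Cxcl10 was at 4.13 on B195AP+, 2.08 on Cspg4- Sdc4- and 1.73 on CD1 Sdc4-, 4.67-fold above their mean. On the Cspg4- Sdc4+ array Cxcl10 was at 3.82, close to B195AP+. Oasl1, of the oligoadenylate synthetase family, was at 4.38 against 2.78 and 1.97, Oas1a, of the same family, at 4.87 against 3.81 and 1.78, and Ifi44 at 2.03 against 0.89 and -2.34. These 3 were the members called higher (1.14% of all genes were). Isg15 was at 6.49 against 5.72 and 3.41. Of the 31 genes of the list, 9 had no B195AP+ value outside the corner. Of the 21 genes above background on all 3 arrays, 18 were above the mean of the others. Of these 21, 16 lay above both (38.4% of all genes did), and the median difference was 1.16. Against Cspg4- Sdc4- alone the median was 0.43, and against CD1 Sdc4- it was 2.15. CD1 Sdc4- cells thus lay below both other Sdc4- populations, and CD1 Sdc4+ cells were low too, with Isg15 at 3.47 and Oas1a at 0.94. High levels were not confined to B195AP+, since Oas1a was at 4.63 on Cspg4+. Relative to each gene's mean over the 7 arrays, the list median was 0.88 on Cspg4+ and 0.92 on B195AP+. Not every interferon target was higher. Psmb9, an immunoproteasome subunit, was called lower at 1.79 against 2.97 and 2.93.

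**Figure D4:**
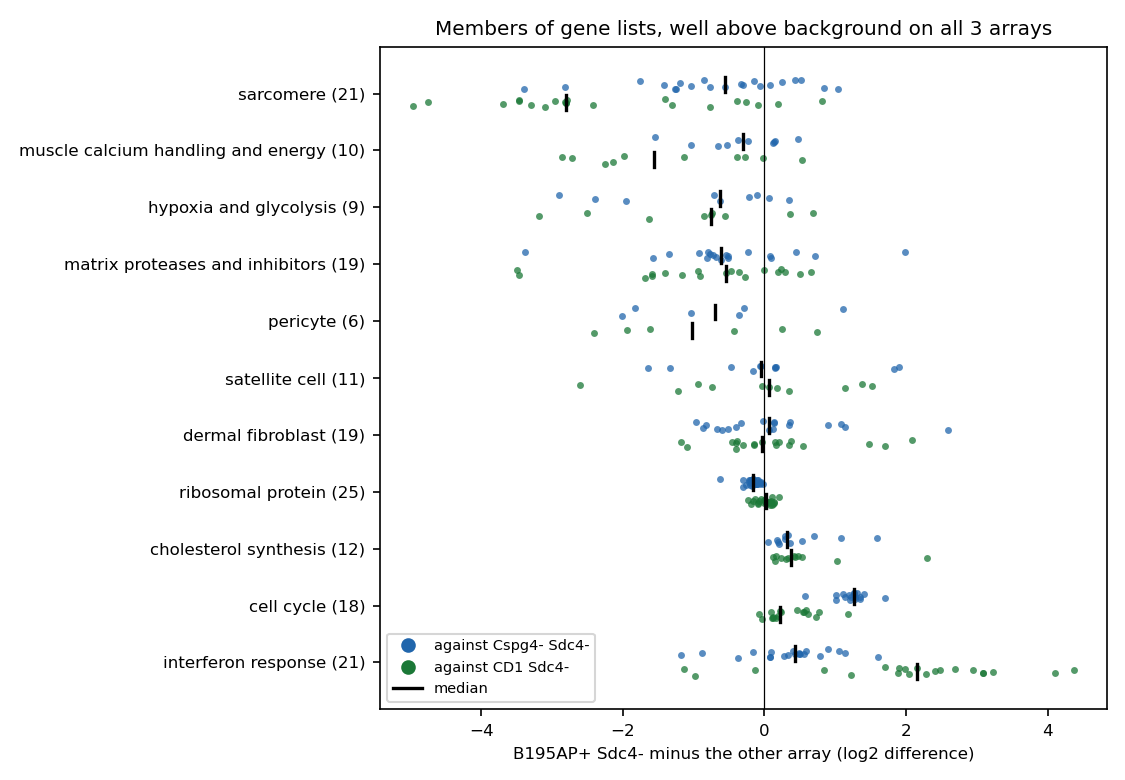
Log2 difference between B195AP+ Sdc4- and each other Sdc4- array for members of 11 gene lists that were well above background on all 3 arrays (number in brackets); a point is 1 gene, and black bars are medians. The sarcomere and interferon medians lie much further from 0 against CD1 Sdc4- (-2.81 and 2.15) than against Cspg4- Sdc4- (-0.55 and 0.43), and the cell cycle median is larger against Cspg4- Sdc4- (1.27).

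All measured cell cycle genes were above the mean of the other arrays, which stood in the opposite order. Replication and mitosis genes are switched on in dividing cells. Of the 34 genes of the list, 12 had no B195AP+ value outside the corner, among them Mki67, Top2a and Pcna. Mcm3, a subunit of the replicative helicase, was the sole called member (1.14% of all genes were called higher), at 4.08 against 2.88 and 2.90. The mitotic cyclin Ccnb1 was at 3.70 against 2.51 and 3.53, and survivin (Birc5), of the chromosomal passenger complex, at 5.79 against 4.44 and 5.60. Both were therefore near the CD1 Sdc4- level and above that of Cspg4- Sdc4-. All 18 genes above background on all 3 arrays were above the mean of the others (6333 of all 11920 genes were). Of the 18, 16 lay above both (38.4% of all genes did), and the median was 0.77. The median was 1.27 against Cspg4- Sdc4- and 0.23 against CD1 Sdc4-. For the helicase subunits Mcm3 to Mcm7 the gap to the nearer array was 0.56 to 1.18, whereas for Ccnb1, Ccnb2, Aurka, Bub1 and Cenpe it was 0.10 to 0.23 and for Bub1b 0.46.

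Genes of cholesterol synthesis were higher by a small amount against both arrays alike. Cells low in sterol release SREBP2, which induces the pathway. The 250 bases before Hmgcs1, its early enzyme, at chr13:119690101-119690350 on the plus strand, are shown with the match to the sterol regulatory element (TCACNCCAC, either strand) in capitals (RefSeq, GRCm38.p6).
Hmgcs1: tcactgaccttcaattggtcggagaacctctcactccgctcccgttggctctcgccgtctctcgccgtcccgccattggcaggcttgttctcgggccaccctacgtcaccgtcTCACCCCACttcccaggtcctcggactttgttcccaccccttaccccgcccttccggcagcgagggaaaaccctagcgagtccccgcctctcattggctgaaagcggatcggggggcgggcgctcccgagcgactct
This motif was held by 1 of the 7 measured members with a promoter in the table, and by 1.22% of all genes there. Hmgcs1 was at 4.88 on B195AP+, 4.69 on Cspg4- Sdc4- and 4.71 on CD1 Sdc4-. Fdps, which makes farnesyl pyrophosphate, was at 5.81 against 5.27 and 5.33, and Lss, which closes the sterol ring, at 1.77 against 1.44 and 1.35. All 12 measured members lay above both arrays, and above both by any size lay 38.4% of all genes. The median difference was 0.34, with 0.31 and 0.38 against the single arrays, and the smallest was 0.14. Over all genes, the median absolute difference of B195AP+ was 0.29 from Cspg4- Sdc4- and 0.27 from CD1 Sdc4-, so the list's medians were about the size of a typical difference between arrays.

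**Figure D5:**
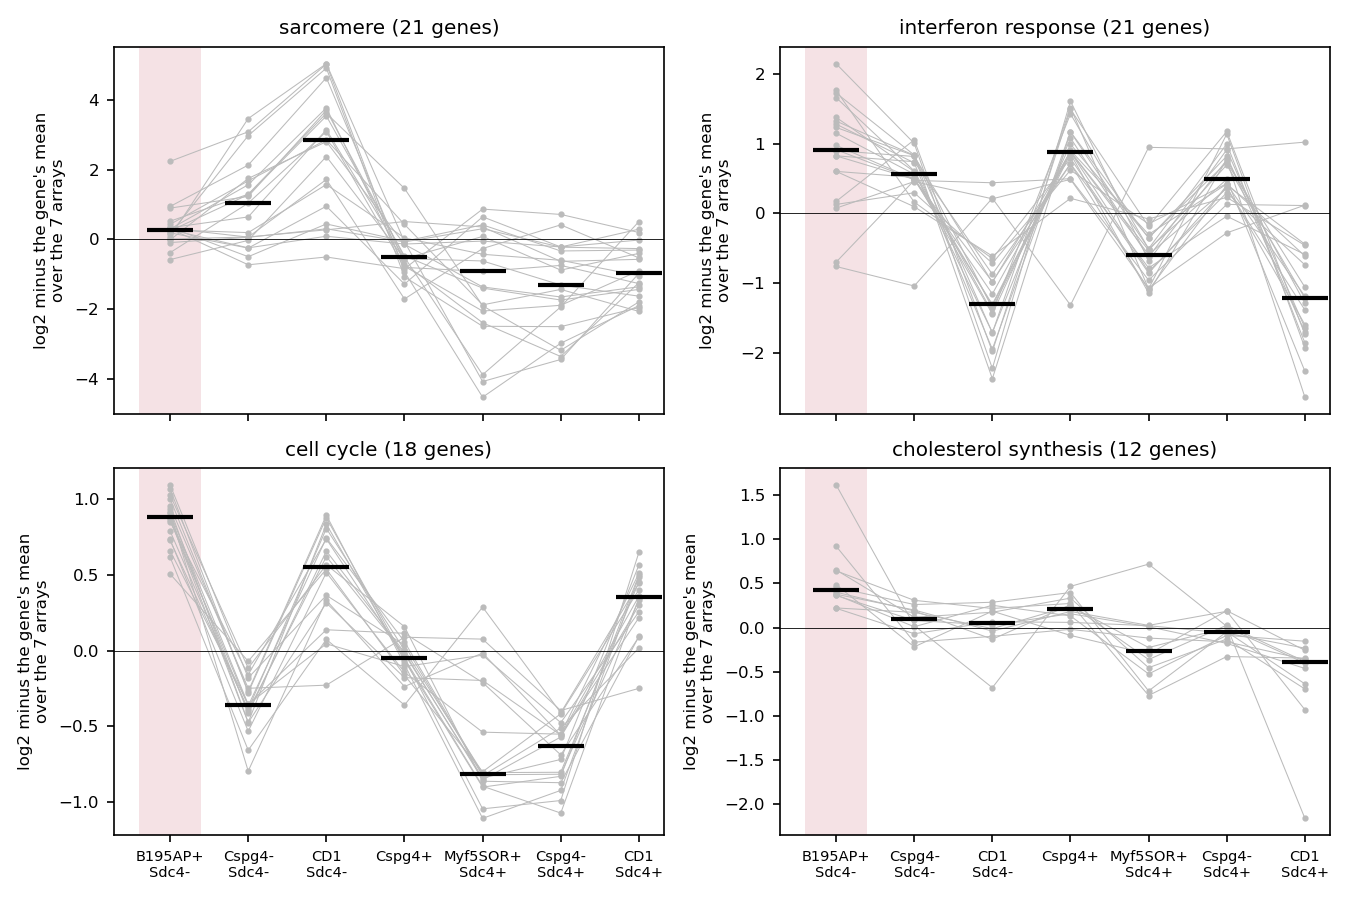
Log2 intensity of each gene minus its mean over the 7 arrays, for members of 4 lists measured above background on all 3 Sdc4- arrays; lines join the values of a gene, black bars are array medians, and the shaded band is B195AP+ Sdc4-. The sarcomere median is highest on CD1 Sdc4- (2.86, with B195AP+ at 0.28), the interferon median lowest on the CD1 arrays (-1.30 and -1.21), and the cell cycle and cholesterol medians highest on B195AP+ (0.88 and 0.43). The interferon median is about as high on Cspg4+ (0.88) as on B195AP+ (0.92).

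Most measured targets of the hypoxia response were lower. Of the 20 genes of the list, 10 had no B195AP+ value outside the corner. Under low oxygen, HIF factors induce glycolytic enzymes and the prolyl hydroxylase Egln3, which in turn limits HIF. Egln3 was at -0.69 on B195AP+, 2.21 on Cspg4- Sdc4- and 2.49 on CD1 Sdc4-, 8.25-fold lower. The vasodilator peptide adrenomedullin (Adm) was at 1.22 against 3.62 and 3.73, and Ankrd37 at 0.81 against 2.76 and 2.45. Each was also lower than on all 4 remaining arrays, where Egln3 lay between 0.22 and 2.24. Of the 9 genes measured, 7 were lower and 3 called lower, with a median of -0.68, against 5587 of 11920 genes lower and 2.21% called lower over all genes. Glycolytic members differed less, Pgk1 being at 7.79 against 8.42 and 8.52 and Ldha at 6.04 against 6.27 and 6.61, and Vegfa, the vascular growth factor, was higher at 4.03 against 3.69 and 3.67.

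Of the pericyte genes above background on all 3 arrays, all but Cspg4 were lower. Of the 14 genes of the list, 5 had no B195AP+ value outside the corner, among them Pdgfrb, Rgs5 and Notch3. Cox4i2, a cytochrome oxidase subunit, was at -0.16 against 1.85 and 2.24 (4.62-fold lower), and Ndufa4l2, a respiratory chain protein also known as a HIF target, at 4.72 against 6.56 and 6.67 (3.71-fold). The Tie2 ligand Angpt1 was at -1.73 against -0.69 and -0.11. The channel subunit Abcc9 was at background on B195AP+, at least 2.27-fold lower. Of 6 genes above background on all 3 arrays, 5 were lower (5587 of all 11920 genes were) and 4 lay below both (32.9% of all genes did). The smooth muscle actin Acta2 was higher, at 0.94 against -0.66 and -0.34 (2.71-fold). Adipocyte genes were lower in 7 of 8, beside the same 5587 of all 11920 genes. The lipid droplet protein Plin4 was called at -0.22 against 4.27 and 1.78 (2.21% of all genes were called lower).

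Signalling genes gave scattered differences. In the IGF system the binding protein Igfbp3 was at 1.49 against 2.94 and 4.17. The RNA-binding proteins Igf2bp1 and Igf2bp3, known from embryonic tissue, were above background on B195AP+ (-2.20 and -1.62) and at background on both other arrays, at least 3.30-fold and 4.94-fold higher. Rspo1, a Wnt agonist, was at 0.08 against 2.64 and 2.48 (5.58-fold lower), and Kremen1, a receptor that dampens Wnt signalling, at 2.70 against 3.76 and 3.76. Tgfb2 was at -1.76 against -0.05 and -0.13, and the EGF receptor at 3.55 against 4.61 and 4.90, with larger gaps at its further probes. The EGF receptor ligand Areg was higher, at 0.67 against -0.45 and -0.66. Of 10 Hox genes, which set position along the body axis, 5 were higher and 5 lower. Ribosomal protein genes, as genes every cell uses, had a median of -0.06 over 25.

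Genes above background on B195AP+ and at background on both other arrays numbered 525 of 13273. They entered by the B195AP+ array alone and could only be higher, among them Krt8, Lor, Myf6, Igf2bp1 and Igf2bp3 above. Genes in the other direction had to be bright on both other arrays, so the counts of the 2 directions are not comparable. Of the 525, 224 were at least 2-fold beyond and 30 of those lay on clustered spots. The next 8 by size off such spots, chosen after their values were seen, were Cpb1, Bnc1, Pdzk1, Adamts8, Cckar, Cacna1i, Ocm and Ugt1a6a. Each rests on 1 probe. Bnc1, a zinc finger factor of epithelia and germ cells, was at -0.81 against -4.19 and -5.24, at least 8.62-fold higher. Adamts8, a matrix protease, was at -0.88 against -3.66 and -4.05, at least 7.58-fold higher. The 8 bounds ran from 5.28-fold to 8.94-fold, well short of those for Ifi202b and Cxcl13 in the other direction.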

How the data were processed

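The 7 populations were each measured on 1 Agilent SurePrint G3 mouse array, all on 1 slide. The deposited intensity values were made by the authors with Agilent Feature Extraction 11.5.1.1 (background-subtracted, not normalized between arrays), per the file headers, which place probes in mm9. A table of log2 values for the whole series, deposited by the authors, served as an alternative only, since its centring is not stated; the submitters' processing notes name lumi, without its role.

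Log2 processed intensity was scaled by subtracting the 75th percentile of the non-control spots of the array outside the streaked corner (rows up to 200, columns up to 130). Outlier spots were left out, spots of a probe averaged, and a gene represented by its brightest probe among those with a B195AP+ value. Symbols came from a reference gene table (GRCm38.p6) for the 27656 probes matched by accession, otherwise from the files. A gene entered if well above background on B195AP+ or on both other arrays, and was called at a gap of at least 1 log2 unit to the nearer array. Counts over gene lists use genes well above background on all 3 arrays. A gene at background on 1 side is given as "at least N-fold": the mean of the bright side against, per dim array, the higher of its own value and the lowest well-above-background signal. A spot was clustered if it deviated by more than 1.5 log2 units from the median of the other 6 arrays and at least 2 spots within 2 rows and columns did so in the same direction.

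limma 3.58.1 (R 4.3.3; lmFit, eBayes) was fitted to 6 arrays with Benjamini-Hochberg adjustment over 13273 genes, and was tested on simulated data. Named genes were 9 identity genes, the 15 highest and 15 lowest by gap, 8 and 8 at background on 1 side, and up to 4 members of each of 41 lists. Some genes that this rule selects are not reported here. Other list members named as examples were chosen after their values were seen. The members and lists were chosen with earlier results of these data known. Alternatives were other filters, probe summaries, scalings, background corrections, the series table, spots kept or left out, and each array left out. The number of arrays, 1 per population, limits the precision.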

Additional observations from a re-analysis of the deposited data

How the results depend on the processing

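Each population has 1 array, and B195AP+ has no second array of its line to pair with. The Cspg4 and CD1 lines each had an Sdc4+ and an Sdc4- array, and an alternative limma fit took line as a random block. Main counts of genes beyond both arrays were 395 higher and 402 lower. They were 136 and 264 for genes above background on all 3 arrays, 693 and 618 with no filter, 655 and 1401 with the streaked corner kept, 101 and 131 after normexp and quantile normalization, and 143 and 107 at a gap of 2 log2 units. The series table gave 258 lower. Leaving out 1 of the other arrays gave 869 to 926 higher and 705 to 737 lower. Of the 136 and 264 genes above background on all 3 arrays, 62 and 120 remained called after normexp, and 109 of 131 and 156 of 249 in the series table, with 0 turned. With the corner kept 6 turned, and with the mean of probes 1. The named genes' differences moved beyond the spread of the other 2 arrays for 94 genes and not for 40 after normexp, and for 64 and 64 in the series table, so their folds depend on the normalization.

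limma passed 55 genes. The count was 0 for genes above background on all 3 arrays (smallest adjusted p 0.271; 339 higher and 441 lower at an unadjusted p under 0.05), 27 with no filter, 22 with the mean of a gene's probes, 17 with values raised to the floor, 790 with the corner kept and 2 with clustered spots left out. It was 26 after normexp, 17 with the 3 Sdc4- arrays alone, 29 with an intensity trend, and 7 to 80 when 1 array was left out: 7 without either other Sdc4- array, 22 without Myf5SOR+ Sdc4+, 23 without Cspg4- Sdc4+ and 80 without CD1 Sdc4+. The causes were not tested, beyond the spots or genes each setting adds or removes.

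The mast cell median over 2 genes was -1.41, and was -1.89 with the mean of probes, -0.97 after normexp and -1.10 in the series table. Medians of the sarcomere, interferon, cell cycle and cholesterol lists kept their sign under every alternative run. With either array left out the sarcomere median ran from -2.81 to -0.55, the interferon median from 0.43 to 2.15, the cell cycle median from 0.23 to 1.27, the cholesterol median from 0.31 to 0.38 and the mast cell median from -1.59 to -1.22. Of the named genes, Cacna1i reversed to -0.18 with the corner kept.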

Other observations

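Markers of further cell types that the preparations could hold were mostly too dim to compare or without a common direction. Of 23 macrophage and myeloid genes, 11 were well above background neither on B195AP+ nor on both other arrays. Of the 7 above it on all 3, 3 were higher and 4 lower on B195AP+, with the Fc receptor subunit Fcer1g called lower (-3.42 against -2.28 and -2.03). Cd68, a lysosomal protein of macrophages, was at background on B195AP+ and at -1.71 and -1.60 on the others, at least 4.94-fold lower, while Adgre1, a macrophage surface receptor, was above background on B195AP+ alone, at least 2.23-fold higher. Of 5 endothelial genes 2 were higher and 3 lower, with the VEGF receptor Flt1 at -0.08 against 0.94 and 1.24. By the same rule 8 of 15 lymphocyte genes and 7 of 10 erythroid genes did not enter.

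Among 21 early response and stress genes above background on all 3 arrays, 10 were higher and 11 lower. Klf2 was the sole called member (1.14% of all genes were called higher), at 3.68 against 0.87 and 2.60. The tendon genes were split between Tnc, called higher at 4.65 against 3.03 and 3.61, and Col12a1. Ucp3, a mitochondrial carrier, was at -3.24 on B195AP+ and at 0.03 and 0.38 on the other Sdc4- arrays, and at -3.22 on Myf5SOR+ Sdc4+.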
